A study of Bos taurus with 10 samples.

Results

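Transcripts of 10 bovine glycolysis genes were followed through early cleavage: HK1, HK2, GPI, PFKP, ALDOA, TPI1, PGK1, ENO1, PKM and LDHA. They were taken by symbol from a named list of 10, which was chosen with earlier results of these data known. All 10 were among the 28700 genes of the table, and all 10 were among the 11761 genes tested, which averaged 1 FPKM or more across the libraries. FPKM is a count of sequenced fragments scaled for transcript length and library size, so levels can be set side by side between genes. The libraries came from whole bovine (Bos taurus) embryos. Each zygote had been injected with silencing RNA that targets H1FOO, which encodes an oocyte form of histone H1 (knockdown, KD), or with a negative control siRNA (NC). KD and NC morulae were collected 5.5 days after insemination (3 libraries each). KD and NC embryos of the 8/16-cell stage were collected at day 4 (2 libraries each). Breed, sex and the number of embryos behind a library are not given in the sources used here.

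Glycolysis splits glucose into pyruvate in the cytosol, with a preparatory phase that spends ATP and a later phase that returns it. Lactate dehydrogenase can then turn pyruvate into lactate, while the pyruvate dehydrogenase complex passes it to the mitochondria. Cleavage-stage mammalian embryos are known to rely mainly on pyruvate and lactate, and glucose use is known to increase towards the blastocyst.

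H1FOO stood at 0.0610, 0.191 and 0.251 FPKM in KD morulae, against 0.294, 1.05 and 2.17 FPKM in NC morulae. KD 8/16-cell embryos had 0.649 and 0.0736 FPKM of it, against 50.8 and 10.8 FPKM in NC 8/16-cell embryos. The KD libraries were thus below the NC libraries at both stages, although the limma difference did not pass at either (adjusted p = 0.374 in morulae and 0.104 at the 8/16-cell stage). With the replicate number as a block it passed by limma at the 8/16-cell stage (adjusted p = 0.0107), where the numbers were not found to pair the libraries, and not in morulae (0.144). Of 10 embryo markers, 9 were in the table and none was at 0 throughout a group, and their summed level was 569 to 913 FPKM in KD morulae and 799 to 1128 FPKM in NC morulae. It was 482 to 516 FPKM in KD and 507 to 697 FPKM in NC 8/16-cell embryos. Of these 9, 7 had a negative log2 difference, KD minus NC, in morulae (median -0.59) and 8 at the 8/16-cell stage (median -0.25). None passed by limma. An unadjusted p under 0.05 was found for 3 in morulae (21.2% of all genes) and 2 at the 8/16-cell stage (4.37% of all genes). With the block 3 fell (8% of all genes) and 1 rose (3.89% of all genes) in KD morulae. The part of these markers in the enzyme differences was not tested. A pair of microRNA genes, MIR2887-1 and MIR2887-2, held 27.1% and 8.06% of the summed FPKM of the KD 8/16-cell libraries and 0% elsewhere. The summed FPKM was not equal between libraries (345464 to 669836 FPKM), so differences that involve these libraries depend on how the libraries are scaled. At the 8/16-cell stage the median log2 difference of all genes, KD minus NC, was 0.01 as deposited. Rescaled to an equal sum of FPKM it was -0.32, and -0.08 when that sum left out the MIR2887 pair and RN18S1. With quantile normalization it was -0.01. The residual ribosomal RN18S1 signal was 8553 to 11581 FPKM in KD morulae and 2704 to 8611 FPKM in NC morulae. Its log2 difference of 1.23 did not pass (limma adjusted p = 0.194), except with the replicate number as a block (0.0386), and its part in the morula differences was not tested.

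Together the 10 enzymes added up to 640.3 to 737.8 FPKM in KD morulae and 553.6 to 804.5 FPKM in NC morulae. The sums were 744 and 839.7 FPKM in KD 8/16-cell embryos and 659 and 751 FPKM in NC 8/16-cell embryos. The levels spanned a wide range within 1 pathway. GPI, which interconverts glucose and fructose 6-phosphates, and ALDOA, the aldolase that splits the hexose into triose phosphates, were the most abundant members in every group. The mean of GPI was 182 FPKM in KD morulae and 211 FPKM in NC morulae, and the mean of ALDOA was 174 FPKM in KD morulae and 181 FPKM in NC morulae. The libraries of GPI and ALDOA overlapped in every group other than KD 8/16-cell embryos. PGK1, HK2, PKM and ENO1 held the middle ranks in every group, and HK1, TPI1, LDHA and PFKP were the 4 lowest. In NC morulae these 4 had separate ranges, with means of 14.6 FPKM (HK1), 5.09 FPKM (LDHA), 2.72 FPKM (TPI1) and 0.990 FPKM (PFKP). In KD morulae the ranges of HK1 and TPI1 overlapped, and so did those of LDHA and PFKP.

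**Figure D1:**
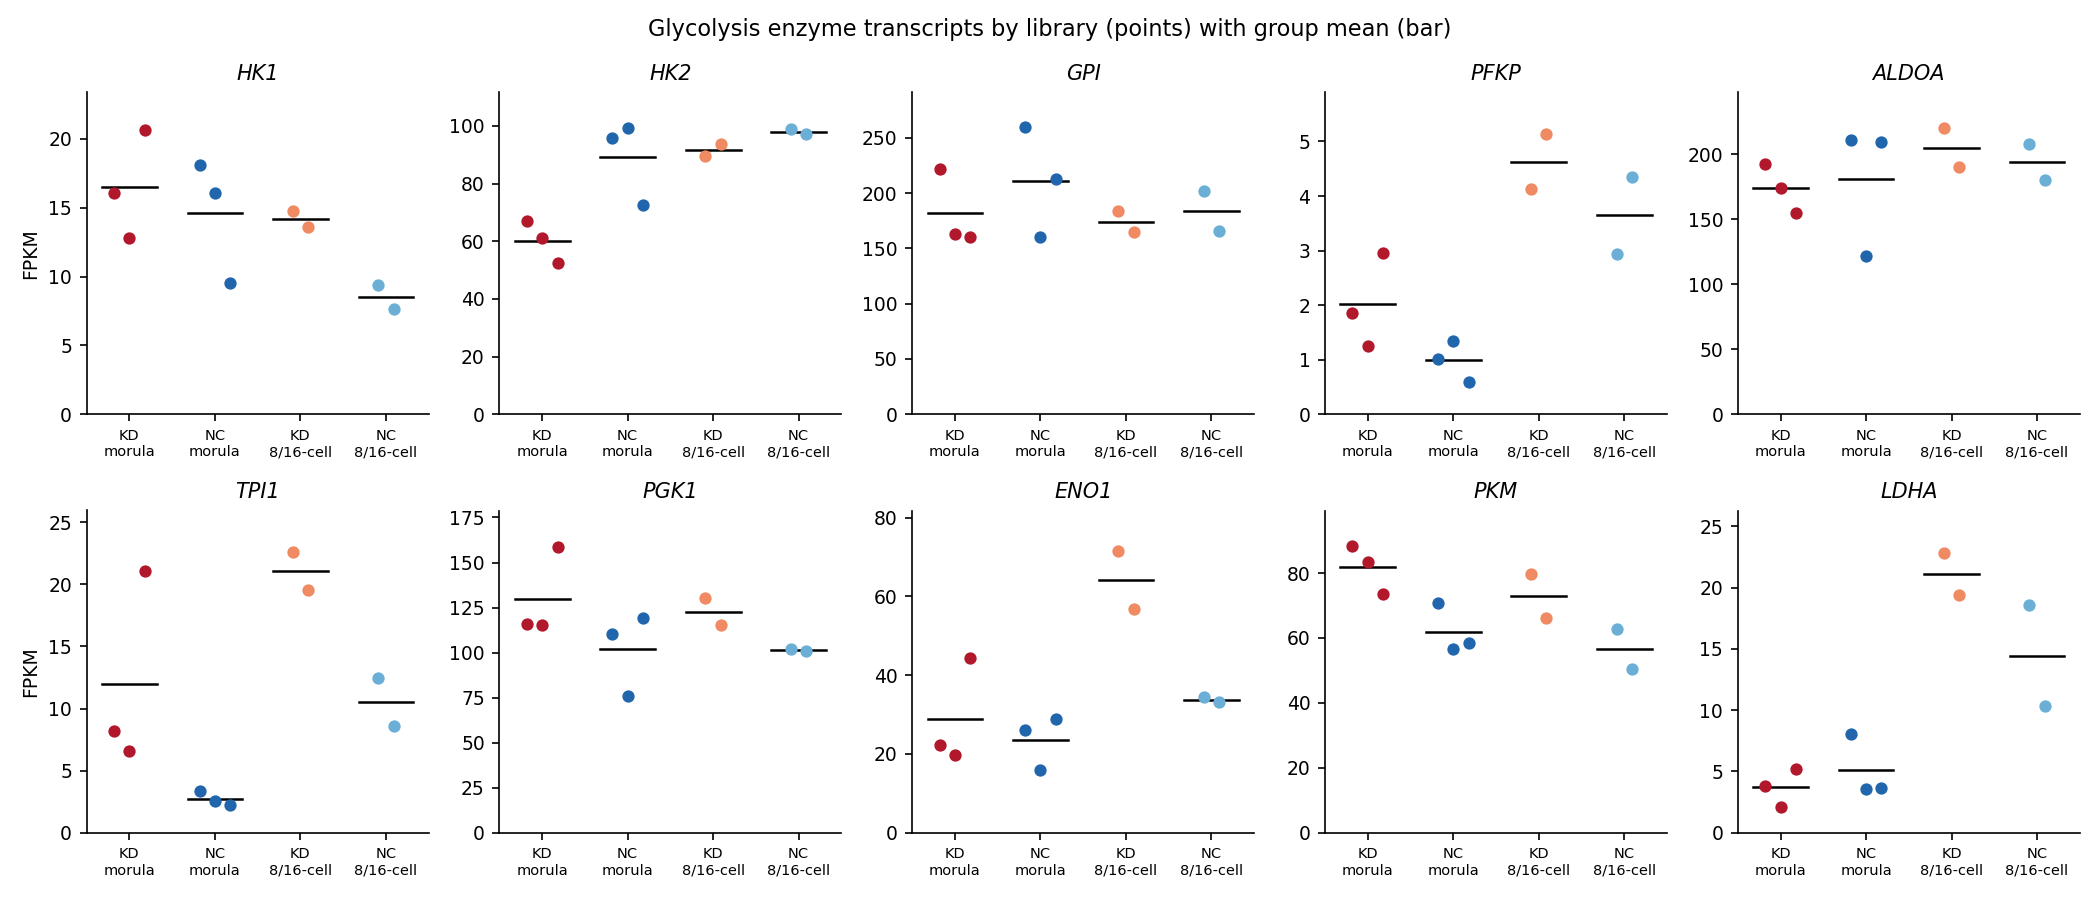
FPKM of the 10 glycolysis enzymes on linear axes from 0, 1 panel per gene. Points are single libraries and bars are group means, with KD left of NC and morulae left of 8/16-cell embryos. TPI1 lies at 6.62 to 21.1 FPKM in KD morulae and at 2.20 to 3.39 FPKM in NC morulae, while LDHA lies at 2.09 to 8.08 FPKM in all morulae and at 10.3 to 22.9 FPKM in all 8/16-cell embryos.

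Between the stages, the enzymes that passed with FPKM as deposited all fell, and none of those that passed rose. In KD embryos LDHA, PFKP, ENO1 and HK2 were lower in morulae than in 8/16-cell embryos, but the calls of HK2, PFKP and ENO1 depended on the scaling, as given below. In NC embryos LDHA, PFKP and TPI1 were lower in morulae. A gene passed where limma gave an adjusted p under 0.05 (Benjamini-Hochberg over all genes tested). By this rule 4 of 10 enzymes fell in KD embryos, where 14.8% of all genes fell, and 0 of 10 rose, where 5.22% of all genes rose. An unadjusted p under 0.05 was found for 5 of 10, where 36.1% of all genes had one. In NC embryos 3 of 10 fell, where 18.2% of all genes fell, and 0 of 10 rose, where 12.6% of all genes rose. An unadjusted p under 0.05 was found for 4 of 10, where 43.7% of all genes had one. In KD embryos the morulae lay wholly below the 8/16-cell embryos for 4 of 10 enzymes (36.7% of all genes) and wholly above for 0 of 10 (16.6% of all genes). In NC embryos they lay wholly below for 4 of 10 (32.6% of all genes) and wholly above for 1 of 10 (24.3% of all genes). The median log2 difference, morula minus 8/16-cell, was -0.42 for the enzymes and -0.18 for all genes in KD embryos. In NC embryos it was -0.14 for the enzymes and -0.07 for all genes. The columns of the stages may have been assembled separately, as described with the processing, and such a step cannot be told apart from the stage. In bulk libraries such as these, fewer cells of a type and less RNA per cell cannot be told apart either.

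LDHA, the lactate dehydrogenase subunit abundant in skeletal muscle, had the largest difference of the 10 enzymes in KD embryos. It stood at 3.84, 2.09 and 5.19 FPKM in KD morulae, against 22.9 and 19.4 FPKM in KD 8/16-cell embryos. In NC embryos it stood at 8.08, 3.57 and 3.62 FPKM in morulae, against 18.5 and 10.3 FPKM at the 8/16-cell stage. Every morula was below every 8/16-cell library of its treatment. The log2 difference was -2.28 (SE 0.38) in KD embryos, with an adjusted p of 0.00397 by limma. It was -1.37 (SE 0.38) in NC embryos, with an adjusted p of 0.0207 by limma. In KD embryos the fall passed under all 16 alternatives, with adjusted p between 0.00327 and 0.0402 by limma. In NC embryos it did not pass without NC morula replicate 2 or 3 (adjusted p = 0.0589 and 0.0643, limma), without NC 8/16-cell replicate 1 (0.189), or with no filter on low values (0.0506).

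PFKP, a phosphofructokinase isoform named after platelets and part of the committing step of the pathway, was the least abundant member. It had 1.86, 1.26 and 2.96 FPKM in KD morulae, against 4.12 and 5.14 FPKM in KD 8/16-cell embryos. In NC embryos it had 1.02, 1.35 and 0.600 FPKM in morulae, against 2.95 and 4.35 FPKM at the 8/16-cell stage. The stages did not overlap in either treatment. The log2 difference was -0.93 (SE 0.29, limma adjusted p = 0.0463) in KD embryos and -1.23 (SE 0.29, limma adjusted p = 0.0107) in NC embryos. The NC call was lost without NC 8/16-cell replicate 2 (adjusted p = 0.0989, limma).

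TPI1, the triose phosphate isomerase that lets both products of the split hexose go on, had 8.15, 6.62 and 21.1 FPKM in KD morulae, against 22.6 and 19.5 FPKM in KD 8/16-cell embryos. KD morula replicate 3 reached into the 8/16-cell range, and the log2 difference of -0.93 (SE 0.39) did not pass (limma adjusted p = 0.112). Without KD morula replicate 3 it was -1.40 and passed (adjusted p = 0.0101, limma). In NC embryos TPI1 had 3.39, 2.56 and 2.20 FPKM in morulae, against 12.5 and 8.55 FPKM at the 8/16-cell stage. The NC morulae were all below the NC 8/16-cell embryos, and the log2 difference was -1.62 (SE 0.39, limma adjusted p = 0.0110). It was not called without NC 8/16-cell replicate 1 (adjusted p = 0.104, limma).

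ENO1, the ubiquitous enolase, which makes phosphoenolpyruvate, had 22.3, 19.7 and 44.4 FPKM in KD morulae, against 71.6 and 56.9 FPKM in KD 8/16-cell embryos. The groups did not overlap, and the log2 difference was -1.21 (SE 0.34, limma adjusted p = 0.0305). In NC embryos it had 26.0, 15.8 and 28.8 FPKM in morulae, against 34.3 and 33.1 FPKM at the 8/16-cell stage. These groups did not overlap either, but the log2 difference of -0.54 (SE 0.34) did not pass (limma adjusted p = 0.241).

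HK2, an inducible hexokinase that traps glucose as glucose 6-phosphate, had 67.0, 61.2 and 52.5 FPKM in KD morulae, against 89.4 and 93.7 FPKM in KD 8/16-cell embryos. It was lower in each KD morula, with a log2 difference of -0.60 (SE 0.18, limma adjusted p = 0.0430). In NC embryos the morulae (95.8, 99.3 and 72.7 FPKM) overlapped the 8/16-cell embryos (98.8 and 97.0 FPKM), with a log2 difference of -0.14 (SE 0.18, limma adjusted p = 0.579).

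The KD calls of HK2, PFKP and ENO1 depended on the scaling. The median of all genes in KD embryos moved to 0.21 when libraries were rescaled to an equal sum of FPKM, and to -0.01 when that sum left out the MIR2887 pair and RN18S1. With an equal sum the limma differences were -0.13 for HK2 (adjusted p = 0.791), -0.58 for PFKP (0.303) and -0.75 for ENO1 (0.113), and LDHA alone of the 10 still passed. With the reduced sum LDHA and ENO1 passed. The genes that passed were higher in morulae in 26.1% of cases as deposited, against 80.7% with an equal sum, 52.3% with the reduced sum and 52.2% with quantile normalization. Each of these 3 calls also ended when KD morula replicate 1 or 2 or either KD 8/16-cell replicate was left out, with limma adjusted p from 0.0649 to 0.210, or when either NC 8/16-cell replicate was left out (0.0501 to 0.0646). The call of HK2 ended without KD morula replicate 3 as well (0.103), and that of PFKP without NC morula replicate 1 (0.0584).

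The remaining members showed no difference between stages that passed. HK1, the broadly expressed hexokinase, had 18.1, 16.1 and 9.56 FPKM in NC morulae, against 9.38 and 7.66 FPKM in NC 8/16-cell embryos. The groups did not overlap, and the log2 difference was 0.67 (SE 0.27, limma adjusted p = 0.0831). Without NC morula replicate 3 it was 0.93 and passed (adjusted p = 0.0206, limma). GPI, ALDOA, PGK1 and PKM had log2 differences between -0.24 and 0.16 in KD embryos and between -0.14 and 0.18 in NC embryos.

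**Figure D2:**
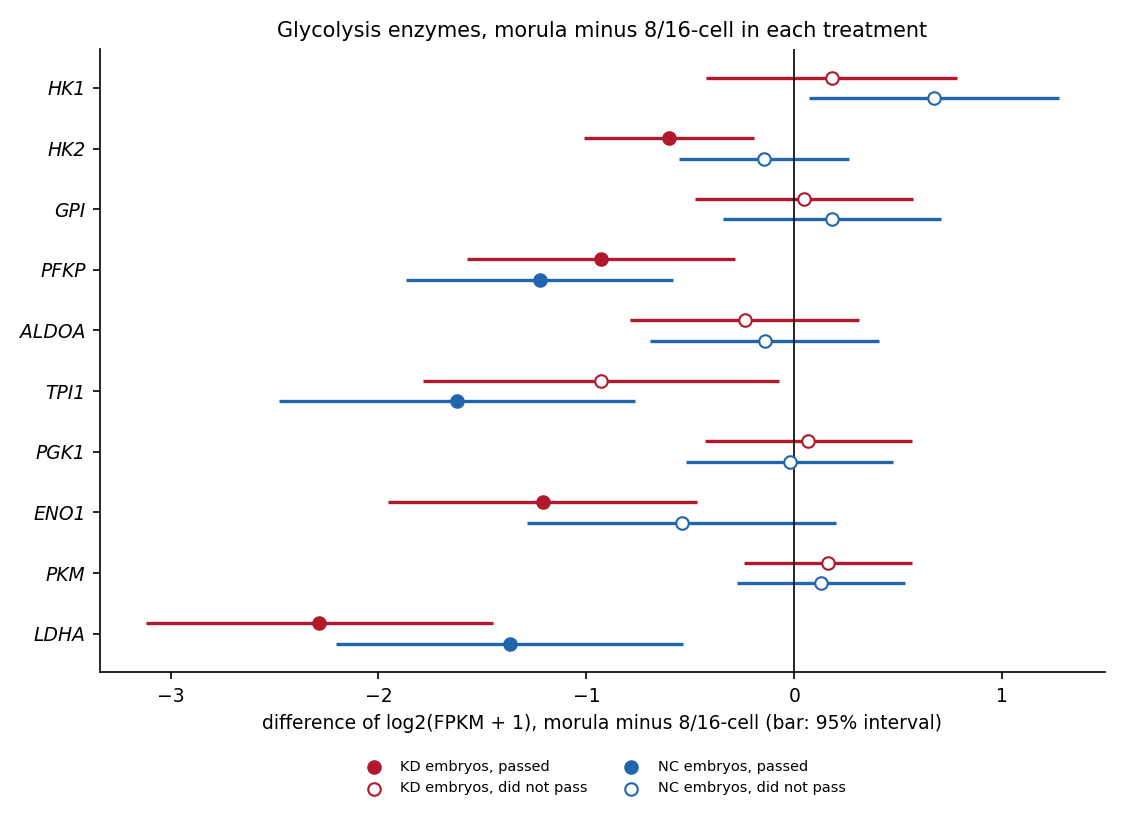
Log2 difference of log2(FPKM + 1), morula minus 8/16-cell, for each enzyme, with KD above NC. Filled points passed, open points did not, and lines are 95% intervals of each gene from the limma fit, not adjusted for the number of genes. Intervals of LDHA and PFKP lie below 0 in both treatments, with LDHA at -2.28 in KD and -1.37 in NC embryos.

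Markers of cumulus and granulosa cells, follicle cells that can cling to an embryo, moved with the stage too. Of 14 listed, 14 were in the table, 10 were tested, and FSHR was at 0 in every library. Their summed level was 16.3 to 99.0 FPKM in KD morulae and 111 to 133 FPKM in KD 8/16-cell embryos. It was 6.81 to 28.7 FPKM in NC morulae and 62.7 to 67.1 FPKM in NC 8/16-cell embryos. By limma 3 of 10 fell in KD embryos (14.8% of all genes) and 2 of 10 fell in NC embryos (18.2% of all genes). Oocyte markers fell in 9 of 10 cases in KD embryos and in 10 of 10 cases in NC embryos, against these same shares. Their summed level was 8.94 to 21.2 FPKM in KD morulae and 154 to 204 FPKM in KD 8/16-cell embryos. It was 7.82 to 13.1 FPKM in NC morulae and 185 to 319.9 FPKM in NC 8/16-cell embryos. The part of either cell source in the enzyme differences was not tested.

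In morulae, none of the 10 enzymes differed between KD and NC embryos at an adjusted p under 0.05 (limma), where 0.697% of all genes passed. An unadjusted p under 0.05 was found for 4 of 10 (TPI1, HK2, PKM and PFKP), where 21.2% of all genes had one. TPI1 and PKM were higher in every KD morula than in every NC morula, as were 8.44% of all genes. HK2 was lower in every KD morula, as were 15.3% of all genes. The median log2 difference, KD minus NC, was 0.21 for the enzymes and -0.08 for all genes, and 6 of 10 were positive, where 42% of all genes were.

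The difference of TPI1 was the largest in size of the 10. Its KD morulae (8.15, 6.62 and 21.1 FPKM) averaged 12.0 ± 7.96 FPKM and its NC morulae (3.39, 2.56 and 2.20 FPKM) averaged 2.72 ± 0.612 FPKM (SD, n = 3 each). The ratio of these means was 4.40, and the lowest KD morula was above the highest NC morula. The log2 difference was 1.65 (SE 0.35, limma adjusted p = 0.0617). KD morula replicate 3 stood far above the other KD morulae, and without it the log2 difference was 1.18 (adjusted p = 0.151, limma). The difference passed without KD morula replicate 1 (adjusted p = 0.0423, limma) and with the filter at a mean of 5 FPKM (0.0491).

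HK2 averaged 60.2 ± 7.32 FPKM in KD morulae and 89.3 ± 14.4 FPKM in NC morulae (SD, n = 3 each). The log2 difference was -0.55 (SE 0.17, limma adjusted p = 0.104). PKM, the pyruvate kinase that yields ATP in the last step, had 88.3, 83.5 and 73.4 FPKM in KD morulae, against 70.7, 56.5 and 58.4 FPKM in NC morulae. The groups did not overlap, although the lowest KD and the highest NC library lay close together. The log2 difference was 0.40 (SE 0.16, limma adjusted p = 0.20).

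At this stage the replicate numbers were taken to pair the KD and NC libraries. The labels do not state such a pairing, and it was read from the same values that were then tested. With the replicate number as a block, TPI1 rose (limma adjusted p = 0.0154) and HK2 fell (0.0244) in KD morulae, while PKM did not pass (0.0713). The block brought 3.89% of all genes past the threshold as higher and 8% as lower. In alternatives chosen after seeing the data, both libraries of replicate 1, 2 or 3 were left out of the blocked fit in turn. TPI1 then had limma adjusted p of 0.0886, 0.0584 and 0.0800, and HK2 had 0.118, 0.0891 and 0.122, so neither passed in any of the 3. Over all 21 alternatives the differences of TPI1 and PKM stayed positive (1.08 to 1.95 for TPI1 and 0.32 to 0.53 for PKM) and that of HK2 stayed negative (-0.69 to -0.43).

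The other members overlapped between KD and NC morulae. PGK1, which makes the first ATP of the later phase, had 116, 116 and 158 FPKM in KD morulae, against 111, 75.9 and 119 FPKM in NC morulae, with a log2 difference of 0.36 (SE 0.20, limma adjusted p = 0.333). PFKP had a log2 difference of 0.58 (SE 0.26, limma adjusted p = 0.231), and the ratio of its means was 2.05. GPI had 222, 163 and 160.5 FPKM in KD morulae, against 260.0, 161 and 213 FPKM in NC morulae. ALDOA had 192, 174 and 155 FPKM in KD morulae, against 211, 122 and 209.7 FPKM in NC morulae. Both ranged more widely within NC morulae than their group means differed. HK1 had 16.1, 12.8 and 20.6 FPKM in KD morulae, within reach of the 18.1, 16.1 and 9.56 FPKM in NC morulae. The log2 differences of HK1, GPI, ALDOA, ENO1 and LDHA lay between -0.35 and 0.23, with limma adjusted p from 0.581 to 0.973, and that of ALDOA (-0.02) was positive under each of the 3 rescalings.

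**Figure D3:**
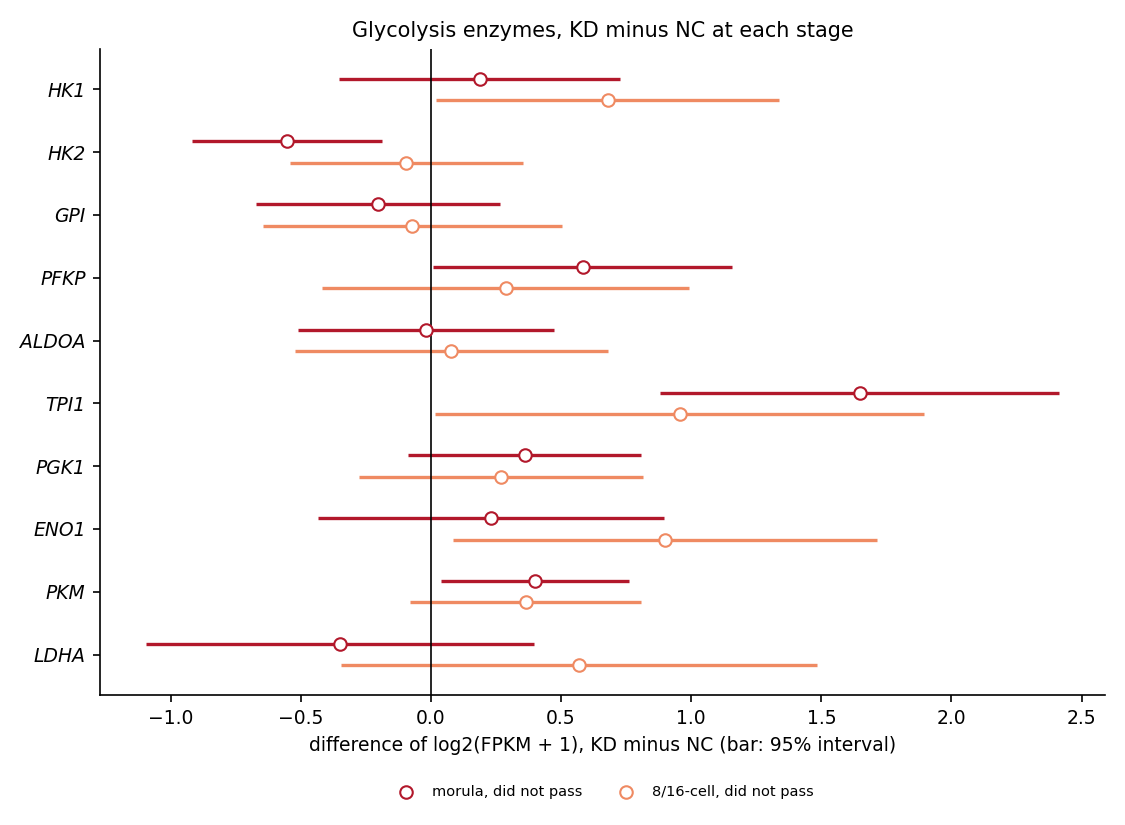
Log2 difference of log2(FPKM + 1), KD minus NC, for each enzyme, with morulae above 8/16-cell embryos. Points are open because none passed, and lines are 95% intervals of each gene from the limma fit, not adjusted for the number of genes. In morulae TPI1 lies at 1.65 and HK2 at -0.55, and at the 8/16-cell stage TPI1 lies at 0.96, ENO1 at 0.90 and HK1 at 0.68.

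In 8/16-cell embryos none of the 10 enzymes passed between KD and NC either (limma), where 0.017% of all genes did, and every adjusted p was 1. An unadjusted p under 0.05 was found for 3 of 10 (HK1, TPI1 and ENO1), where 4.37% of all genes had one. This count depended on the scaling. By limma it was 0 of 10 with an equal sum of FPKM, where 823 of 11761 genes had one. It was 1 of 10 with the reduced sum (420 of 11761 genes) and 2 of 10 with quantile normalization (554 of 11761 genes). With 2 libraries per treatment, HK1, TPI1, PGK1, ENO1, PKM and LDHA were higher in both KD libraries than in both NC libraries, as were 19.3% of all genes, and HK2 was lower, as were 13.9% of all genes. The median log2 difference was 0.33 for the enzymes, against 0.01 for all genes, and 8 of 10 were positive, where 52.1% of all genes were. With an equal sum of FPKM it was -0.03 for the enzymes, against -0.32 for all genes, and 4 of 10 were positive.

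ENO1 had 71.6 and 56.9 FPKM in KD 8/16-cell embryos, against 34.3 and 33.1 FPKM in NC 8/16-cell embryos, and the ratio of the means was 1.90. Its log2 difference was 0.90 (SE 0.37). TPI1 had 22.6 and 19.5 FPKM in KD embryos, against 12.5 and 8.55 FPKM in NC embryos, with a log2 difference of 0.96 (SE 0.42). HK1 had 14.8 and 13.6 FPKM in KD embryos, against 9.38 and 7.66 FPKM in NC embryos, with a log2 difference of 0.68 (SE 0.30). In these 3 genes both KD libraries stood clear of the NC libraries, and the difference was positive under all 21 alternatives.

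LDHA had 22.9 and 19.4 FPKM in KD embryos, against 18.5 and 10.3 FPKM in NC embryos, with a log2 difference of 0.57 (SE 0.41). PKM had 79.7 and 66.2 FPKM in KD embryos, against 62.6 and 50.4 FPKM in NC embryos (0.36, SE 0.20). PGK1 had 130.1 and 115 FPKM in KD embryos, against 102 and 101 FPKM in NC embryos (0.27, SE 0.25). In PKM and PGK1 the sign turned with an equal sum of FPKM (-0.03 for PKM and -0.13 for PGK1). The levels of HK2 lay close together, at 89.4 and 93.7 FPKM in KD embryos against 98.8 and 97.0 FPKM in NC embryos. GPI (184 and 165 FPKM in KD embryos, 202 and 166 FPKM in NC embryos), ALDOA (220.4 and 189.8 FPKM in KD embryos, 208 and 180.3 FPKM in NC embryos) and PFKP overlapped between treatments. The log2 differences were -0.10 for HK2, -0.07 for GPI, 0.08 for ALDOA and 0.29 for PFKP, and those of ALDOA and PFKP turned to -0.32 and -0.026 with an equal sum.

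Over both stages, TPI1 and PKM were the enzymes higher in every KD library than in every NC library of the same stage, and HK2 was the one lower in every KD library. These are 3 of 10, where 5.03% of all genes lay on the same side at both stages (2.03% higher and 2.99% lower). These positions are of FPKM as deposited, and at the 8/16-cell stage the difference of PKM turned to -0.03 with an equal sum. No enzyme lay on opposite sides, where 3.31% of all genes did. The difference between the KD effects in morulae and in 8/16-cell embryos was tested as an interaction. By limma 0 of 10 enzymes passed, where 0.017% of all genes did, and 0 of 10 had an unadjusted p under 0.05, where 9.39% of all genes did. The largest interaction in size was that of LDHA, at -0.92 (SE 0.53, 95% interval -2.10 to 0.26, limma adjusted p = 0.590). That of TPI1 was 0.69 (95% interval -0.52 to 1.90) and that of ENO1 was -0.67 (95% interval -1.72 to 0.38), so effects that differ between stages by about that much are within the error.

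Most tested cumulus and granulosa markers had a positive difference, KD minus NC, but none passed without the block. In morulae 9 of 10 were positive (42% of all genes), with a median log2 difference of 0.71. By limma 0 of 10 passed, 4 of 10 had an unadjusted p under 0.05 (21.2% of all genes), and 3 of 10 rose with the block (3.89% of all genes). In 8/16-cell embryos 7 of 10 were positive (52.1% of all genes), with a median of 0.74. There 0 of 10 passed by limma, and 3 of 10 had an unadjusted p under 0.05 (4.37% of all genes). The summed level of the markers was 16.3, 40.7 and 99.0 FPKM in KD morulae, against 6.81, 21.0 and 28.7 FPKM in NC morulae. It was 111 and 133 FPKM in KD 8/16-cell embryos, against 62.7 and 67.1 FPKM in NC 8/16-cell embryos. KD morula replicate 3, the highest KD morula for HK1, PFKP, TPI1, PGK1, ENO1 and LDHA, was also the highest morula for 6 of the 14 markers, VIM (43.3 FPKM) and LUM (23.4 FPKM) among them. It was the lowest morula for COL1A2 (0.159 FPKM) and CYP19A1, and the lowest KD morula for HK2, GPI, ALDOA and PKM. NC morula replicate 1 was the lowest morula, ties at 0 included, for 11 of the 13 markers not at 0 in all morulae. Yet it was the highest NC morula for HK1, GPI, ALDOA, TPI1, PKM and LDHA, and the lowest NC morula for no enzyme. The part of these cells in the enzyme differences was not tested.

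**Figure D4:**
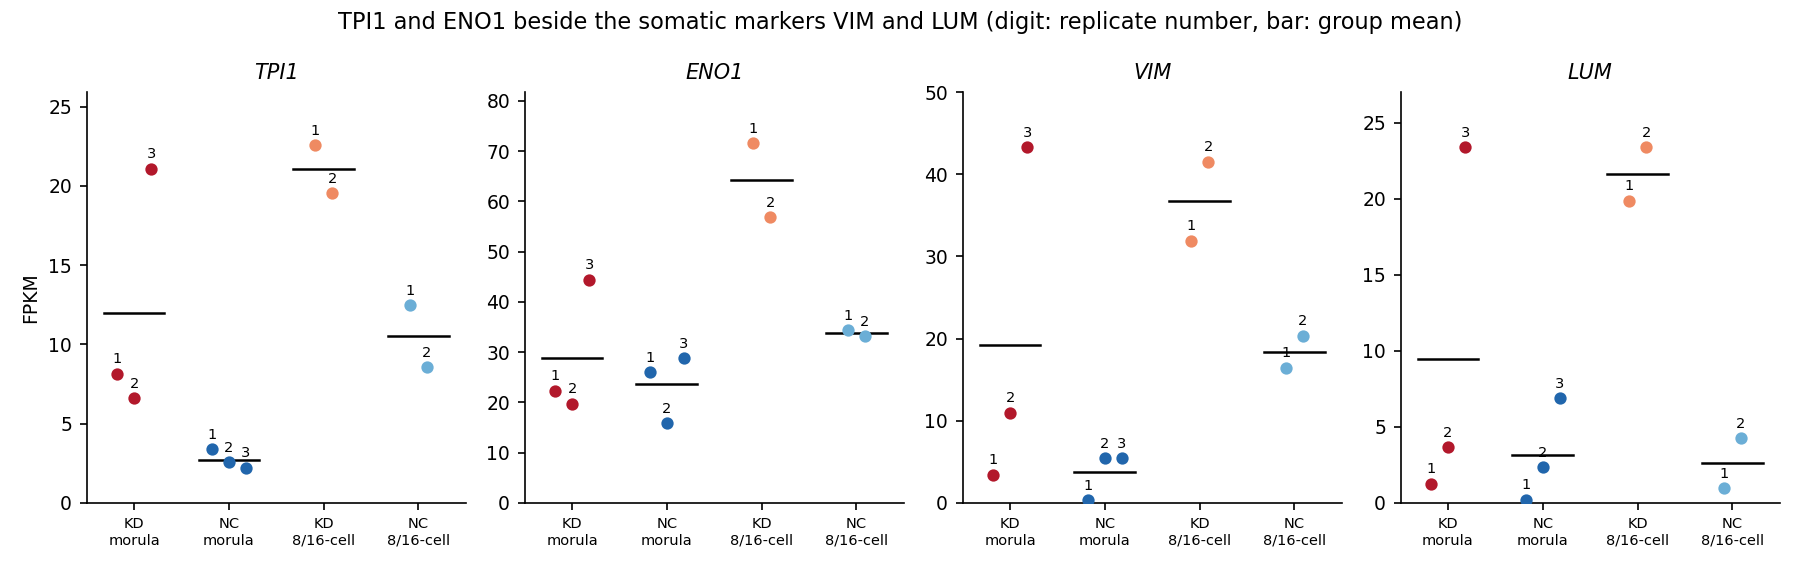
FPKM of TPI1 and ENO1 beside the markers VIM and LUM, on linear axes from 0, with KD left of NC within each stage. Points are single libraries with their replicate number and bars are group means. KD morula replicate 3 is the highest morula in all 4 panels, at 21.1 FPKM for TPI1 and 43.3 FPKM for VIM. VIM and LUM are among the 6 of 14 markers that were highest in that morula. Not drawn are COL1A2 and CYP19A1, which were lowest in it, and HK2, GPI, ALDOA and PKM, for which it was the lowest KD morula. NC morula replicate 1 is the lowest morula for VIM and LUM, but the highest NC morula for TPI1 (3.39 FPKM). For ENO1 it lies between the other NC morulae (26.0 FPKM).

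Markers of sperm and blood were read as well. Of 9 sperm and testis markers 2 were tested. The sums of all 9 were 8.46 to 13.0 FPKM in KD morulae and 1.52 to 2.86 FPKM in KD 8/16-cell embryos. They were 5.82 to 10.5 FPKM in NC morulae and 4.58 to 8.03 FPKM in NC 8/16-cell embryos. By limma 1 of the 2 rose between the KD stages (5.22% of all genes) and 0 between the NC stages (12.6% of all genes). The part of this source in the enzyme differences was not tested. Of 5 blood markers 2 were tested (HBA and CD68). HBB was at 0 in every library other than KD 8/16-cell replicate 1, where it had 1.59 FPKM. PTPRC did not exceed 0.117 FPKM and LYZ did not exceed 0.398 FPKM. HBA had 94.8 to 239 FPKM and CD68 had 1.89 to 5.27 FPKM in all libraries.

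For several steps the share of each isoform in its enzyme family shows which gene supplies the transcript, and this share does not depend on the scaling of a library. HK2 supplied 70.7 to 81.0% of hexokinase FPKM in KD morulae and 82.2 to 87.7% in NC morulae. It supplied 84.5 to 85.9% in KD and 89.8 to 91.6% in NC 8/16-cell embryos. The share was lower in every KD library than in every NC library of its stage. PFKP supplied 17.7 to 30.7% of phosphofructokinase FPKM in KD morulae and 7.19 to 13.3% in NC morulae, against 46.9 to 47.3% in KD and 38.9 to 59.6% in NC 8/16-cell embryos. LDHA supplied 1.97 to 4.01% of lactate dehydrogenase FPKM in KD morulae and 1.91 to 4.43% in NC morulae. Its share was 13.0 to 15.7% in KD and 8.17 to 12.9% in NC 8/16-cell embryos, so LDHB, the heart-type subunit, made up most of the family at both stages. ENO1 supplied 92.8 to 96.7% of enolase FPKM in KD morulae and 88.1 to 91.7% in NC morulae. It supplied 96.7 to 96.9% in KD and 90.5 to 90.6% in NC 8/16-cell embryos. PKM supplied 99.0 to 99.8% of pyruvate kinase FPKM, and ALDOA 81.5 to 90.5% of aldolase FPKM. These shares are descriptions and were not tested.

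The rest of the pathway was read from 7 lists. Over all genes tested, 5.22% rose and 14.8% fell between the KD stages, and 12.6% rose and 18.2% fell between the NC stages. The isoforms and steps outside the 10 enzymes moved partly the other way between stages. Of 9 tested genes (19 listed), 0 rose and 2 fell (BPGM and ADPGK) in KD morulae relative to KD 8/16-cell embryos, and 3 rose and 2 fell in NC morulae relative to NC 8/16-cell embryos. In NC embryos GAPDH, which carries the oxidation step after TPI1, rose with a log2 difference of 1.43 (SE 0.37, limma adjusted p = 0.0156). It had 323.8, 155 and 233 FPKM in NC morulae, against 90.5 and 77.2 FPKM in NC 8/16-cell embryos. PGAM1, the phosphoglycerate mutase, rose by 0.92 (SE 0.25, limma adjusted p = 0.0189), and the ADP-dependent glucokinase ADPGK fell by 0.87 (limma adjusted p = 0.0076). BPGM, which makes 2,3-bisphosphoglycerate, fell by 2.03 (limma adjusted p = 0.000682). In KD embryos GAPDH (0.81) and PGAM1 (0.55) did not pass (limma adjusted p = 0.141 and 0.136), although PGAM1 passed under each of the 3 rescalings and GAPDH under an equal sum and quantile normalization. The KD call of ADPGK ended with an equal sum (-0.39, limma adjusted p = 0.401).

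Transport and control genes also changed between stages. Of 9 tested transporters 1 rose (SLC2A5) and 1 fell (SLC16A3) in KD embryos, and 3 rose and 1 fell in NC embryos. In NC embryos SLC2A1, the GLUT1 glucose transporter, rose by 1.21 (SE 0.32, limma adjusted p = 0.0170), with 72.7, 35.3 and 41.3 FPKM in NC morulae against 18.6 and 21.4 FPKM in NC 8/16-cell embryos. SLC16A1, a carrier of lactate and pyruvate, rose by 0.82 (limma adjusted p = 0.00672), and the fructose carrier SLC2A5 rose by 1.5. SLC16A3, a lactate exporter of glycolytic cells, fell by 1.32. It had 0.311, 0.0831 and 0 FPKM in NC morulae, against 2.27 and 1.40 FPKM in NC 8/16-cell embryos. In KD embryos it had 0.344, 0.693 and 0.840 FPKM in morulae, against 1.89 and 2.43 FPKM at the 8/16-cell stage. Its mean over the 10 libraries was 1.03 FPKM, so it met the filter through the 8/16-cell embryos alone. The filter thus favoured a fall of SLC16A3 in both treatments. SLC2A3, the GLUT3 transporter, had the highest level of those named, at 320.0 to 402.5 FPKM in NC morulae and 506 to 510.7 FPKM in NC 8/16-cell embryos, and did not pass (-0.54, limma adjusted p = 0.128). Of 14 tested regulators, 1 rose (TIGAR) and 3 fell (MYC, PFKFB3 and VHL) in KD embryos, and 0 rose and 4 fell in NC embryos. The 4 in NC embryos were the transcription factors MYC (-2.77), MLXIP (-0.92) and HIF1A (-1.0), and PFKFB3 (-1.52), which makes an activator of phosphofructokinase. The KD calls held under 6 of 16 alternatives for TIGAR, 6 of 15 for PFKFB3, 10 of 16 for MYC, 12 of 16 for VHL and 8 of 15 for SLC16A3, and the NC call of HIF1A held under 9 of 16. With an equal sum MYC (-0.89), PFKFB3 (-0.66), VHL (-0.46) and SLC16A3 (-0.71) did not pass between the KD stages (limma adjusted p from 0.164 to 0.349).

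Genes of pyruvate entry into mitochondria included the pathway gene that passed between KD and NC embryos. Of 13 tested genes, 1 fell in KD morulae (0.553% of all genes fell) and 0 rose. A negative difference was found for 10 of 13 (6812 of 11761 over all genes), and the median log2 difference was -0.59, against -0.08 for all genes. DLAT, a core subunit of the pyruvate dehydrogenase complex, had 2.34, 1.78 and 1.32 FPKM in KD morulae, against 7.45, 5.77 and 5.21 FPKM in NC morulae. Every KD morula was below every NC morula, with a log2 difference of -1.35 (SE 0.21, limma adjusted p = 0.0374). This call held under 5 of 20 alternatives and was lost when any 1 library other than KD morula replicate 1 was left out (limma adjusted p from 0.0528 to 0.172). MPC1, a subunit of the mitochondrial pyruvate carrier, had 20.8, 11.8 and 10.4 FPKM in KD morulae, against 61.0, 29.9 and 29.6 FPKM in NC morulae. Its log2 difference was -1.40 (SE 0.30, limma adjusted p = 0.0617), and it passed with the block (0.00290). With the block 5 of 13 fell (8% of all genes) and 0 rose (3.89% of all genes). PDHX (-0.91) and PDHA1 (-0.81) were among those that fell. When morula replicate 1 or 3 was left out of the blocked fit none of MPC1, PDHX, PDHA1 and DLAT passed, and without replicate 2 MPC1 and DLAT did (limma adjusted p = 0.0241 and 0.0416). PDK1, the kinase that shuts the complex down, did not pass (-0.59, limma adjusted p = 0.190). Between stages 1 of 13 rose (PDHA1, 1.17) and 3 fell (PDK1, PC and DLAT) in KD embryos. In NC embryos 4 rose and 2 fell: PDHA1 (1.67), PDHB (2.10), MPC1 (1.44) and PDHX (0.99) rose, and PDK1 (-1.27) and PC (-0.93), which makes oxaloacetate from pyruvate, fell. The KD calls held under 2 of 15 alternatives for DLAT and 4 of 16 for PC, which with an equal sum stood at -0.40 and -0.13 (limma adjusted p = 0.431 and 0.739).

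**Figure D5:**
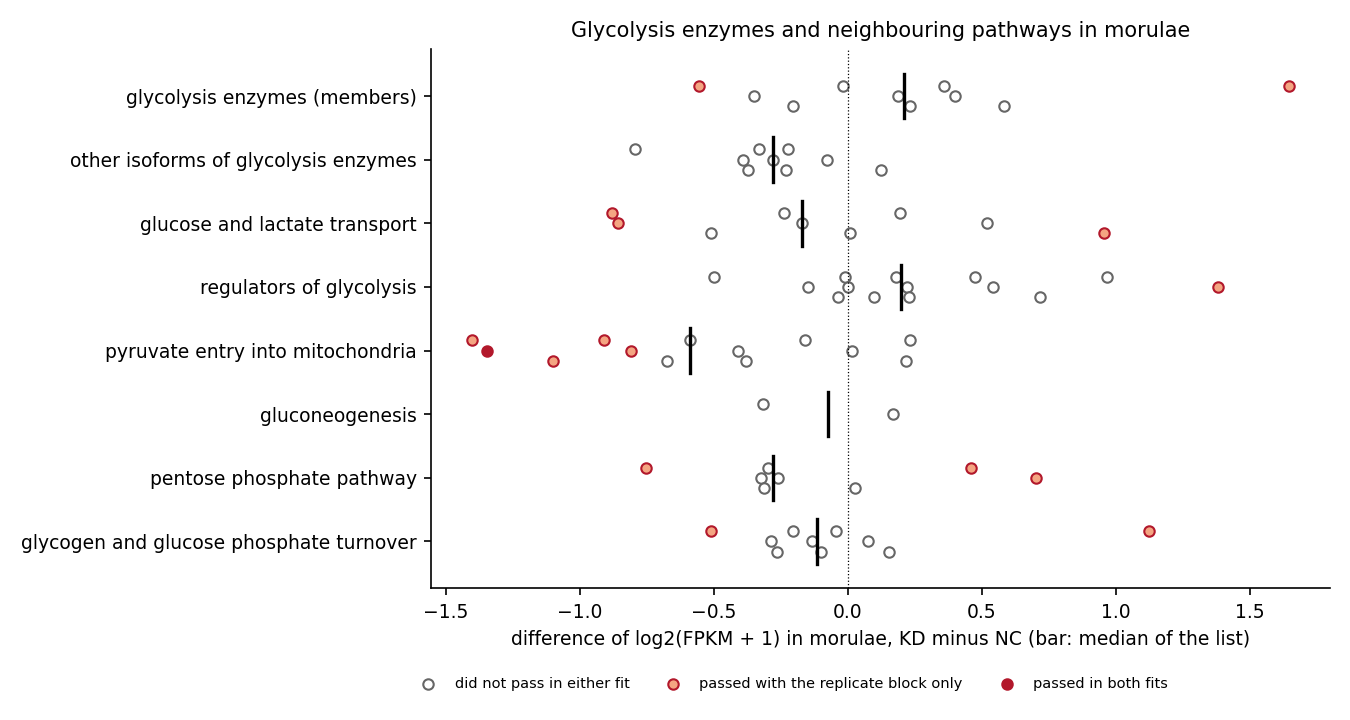
Log2 difference of log2(FPKM + 1), KD minus NC in morulae, for the 10 enzymes and the tested genes of 7 pathway lists, 1 line per list. Points are genes, filled where they passed and open where they did not, a lighter fill marks those that passed with the replicate block alone, and short bars are list medians. The median is 0.21 for the 10 enzymes and -0.59 for pyruvate entry into mitochondria.

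In the other lists no gene passed between KD and NC morulae, where 0.697% of all genes passed and 21.2% had an unadjusted p under 0.05. Among the other isoforms 0 of 9 passed, 1 had an unadjusted p under 0.05, and 8 of 9 differences were negative (6812 of 11761 over all genes). ENO3, the muscle enolase, was at -0.79, PGAM1 at -0.39, LDHB at -0.22 and GAPDH at -0.08, which turned to 0.065 with quantile normalization. Among transporters (0 of 9; 3 at an unadjusted p under 0.05) SLC2A1 was at -0.88, SLC2A8 at -0.86, SLC2A6 at 0.96, SLC2A3 at 0.19 and SLC16A1 at -0.17, and with the block SLC2A1, SLC2A8 and SLC2A6 passed (limma adjusted p = 0.0161, 0.0238 and 0.0373). Among regulators (0 of 14; 5 at an unadjusted p under 0.05) MYC had 9.51, 21.1 and 15.2 FPKM in KD morulae, against 2.81, 7.22 and 5.80 FPKM in NC morulae. Its log2 difference was 1.38 (SE 0.31, limma adjusted p = 0.0624), and it passed with the block (0.00290). In the pentose phosphate pathway (0 of 8; 2 at an unadjusted p under 0.05) TKTL1, a transketolase-like protein, was at 0.70 and RPIA, the ribose phosphate isomerase, at -0.75, and in glycogen turnover (0 of 10; 2 at an unadjusted p under 0.05) PYGL, the liver glycogen phosphorylase, was at 1.12 and UGP2, which makes UDP-glucose, at -0.51. These 4 passed with the block, but none did when any 1 morula replicate was left out of it (limma adjusted p from 0.0588 to 0.162). Of MYC and the 3 transporters, none passed with the block without replicate 1 or 3, and MYC, SLC2A1 and SLC2A8 passed without replicate 2. In gluconeogenesis 2 of 7 listed genes were tested, with 0 at an unadjusted p under 0.05, and FBP1 averaged 0.247 FPKM and was not tested. Between KD and NC embryos of the 8/16-cell stage 0 genes of each of the 7 lists passed (limma). An unadjusted p under 0.05 was found for 1 transporter and 1 regulator (4.37% of all genes had one), and GAPDH was at 0.54. Between stages 2 rose (PGD and TALDO1) and 0 fell in the pentose phosphate list in KD embryos, and PGD and TALDO1 rose and TKTL1 fell in NC embryos. In glycogen turnover 0 rose and 2 fell (GYG1 and PGM1) in KD embryos, and 2 rose (UGP2 and PGM2) and 1 fell (PGM1) in NC embryos. The KD calls held under 3 of 15 alternatives for GYG1, 10 of 16 for PGM1, 8 of 16 for PGD and 10 of 16 for TALDO1, and the NC call of PGM2 under 9 of 16. With an equal sum GYG1 (-0.71) and PGM1 (-0.30) did not pass between the KD stages (limma adjusted p = 0.260 and 0.445).

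The enzymes did not share 1 pattern over the libraries. When each was standardised on the log2 scale over the 10 libraries and the 10 profiles were averaged, the Pearson r of a member with that mean was highest for ENO1 (0.85), LDHA (0.78) and TPI1 (0.77) and lowest for HK1 (0.21), GPI (0.21) and HK2 (0.09). Among 7254 other genes that averaged 5 FPKM or more, those most like the mean profile included RPL36 (r = 0.94), PDIA5 (0.93), UBE2D2 (0.92) and PTGES2 (0.92). These values describe likeness over 10 libraries that share stage, treatment and scaling.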

How the data were processed

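Poly(A) RNA of whole bovine embryos was measured in 10 libraries, grouped by the treatment and stage in their labels. The labels' protocols name a Picopure kit for RNA, oligo(dT) beads for capture and NEBNext Ultra for PCR-amplified libraries. The submitters' processing notes list Cufflinks, featureCounts, HISAT2 and Trimmomatic and, as builds, bosTau9 and ARS-UCD1.2. Versions and the step each tool served are not given in the sources used here. The deposited values are FPKM made by the authors, in 1 gene by library table of 39911 lines. No counts were analysed, so read depth is unknown and no counting error can be given. A library held between 345464 and 669836 FPKM in all and between 11103 and 11872 genes at 1 FPKM or above. Whether counting used strand, and how reads shared with processed pseudogenes (a known matter for TPI1, ENO1, LDHA and GAPDH) were handled, is not given, so values of such genes are uncertain.

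For 81 symbols on several lines (11211 lines), the 8/16-cell columns repeat 1 value per symbol in all 81, while the morula columns do so in 6. The stages may therefore have been put together separately. These symbols were left out, none of them a member. All 10 members were matched by symbol to a RefSeq table of another build, used for names only. Columns not mapped to a sample numbered 0.

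Values were transformed to log2(FPKM + 1), so differences of low genes are understated. The 11761 genes that averaged 1 FPKM or more were fitted with limma 3.58.1 (trend, in R 4.3.3) as 4 group means over all 10 libraries, with 6 residual and 4.63 prior degrees of freedom. P-values are two-sided, adjusted by Benjamini-Hochberg over all genes tested, and passed at 0.05. The script was tested on simulated data. The labels do not say that libraries came from separate collections, so p-values measure the spread between these libraries, which may be technical. At the morula stage, same-numbered KD and NC libraries deviated together from their group means (r = 0.37, 0.325 and 0.312), so the numbers were taken to pair them. At the 8/16-cell stage they were not (r = 0.0558). The labels do not state a pairing, and the fit with the block used the same values from which it was read.

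The 10 members, the 7 pathway lists and the marker lists were chosen with earlier results of these data known. All members are named in every comparison. Of the lists, at most the 4 genes with the smallest p per list and comparison are named, besides GAPDH, PGAM1, SLC2A1, SLC2A3, SLC16A1, LDHB, PDK1 and FBP1. The genes of most similar pattern are from the 5 non-members with the highest r. Some genes that these rules would name are not reported here. MPC1 and PDHX between the NC stages were named after their values were seen, to complete a count of 4. Alternatives changed the pseudocount, the filter, the scaling, the replicate block, the libraries entering the fit and single libraries. A search of promoters for motifs was planned and is not reported here, since no sequence table was used.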

Additional observations from a re-analysis of the deposited data

How the results depend on the processing

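Fits without 1 library leave some groups with 1 sample, which is then assumed to vary like the other groups. In KD against NC morulae, the 82 genes that passed became 139 with the filter at a mean of 5 FPKM, 6 with no filter, 3 with an equal sum of FPKM, 9 with a sum without MIR2887-1, MIR2887-2 and RN18S1, and 0 (2131 at an unadjusted p under 0.05, limma) when the morulae were fitted alone. With the replicate block, a pairing read from these same values, 1398 genes passed (0, 393 and 18 when morula replicate 1, 2 or 3 was left out). For the interaction 32 passed with the block (2, 5 and 7 without morula replicate 1, 2 or 3), against 2 without the block. The 0 enzymes that passed became 1 with the filter at a mean of 5 FPKM and 2 with the block, and the block changed no other call of an enzyme. At the 8/16-cell stage the 2 genes became 11 with no filter and 1 when that stage was fitted alone. Between the KD stages the 4 enzymes became 1 with no filter, 1 with an equal sum, 2 with the reduced sum and 1 with quantile normalization, and 2355 genes became 1329 and 1339 with the equal and the reduced sum. Calls higher in KD morulae made up 20.7% of genes passing as deposited, 0% with an equal sum, 22.2% with the reduced sum and 40.6% with quantile normalization.

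Leaving out single libraries, the genes passing ranged from 0 to 527 for KD against NC in morulae (0 to 1 enzyme), from 2 to 9 at the 8/16-cell stage, from 2 to 6 for the interaction, from 693 to 2698 between KD stages (1 to 4 enzymes) and from 1406 to 3657 between NC stages (1 to 3 enzymes).

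Several differences near 0 changed sign, none of them called. In KD against NC 8/16-cell embryos with an equal sum, PFKP was -0.026, ALDOA -0.32, PGK1 -0.13 and PKM -0.031, and ALDOA was -0.040 with the reduced sum and -0.036 with quantile normalization. In KD against NC morulae ALDOA was 0.035, 0.055 and 0.14 with the equal sum, the reduced sum and quantile normalization, and GAPDH was 0.065 with quantile normalization. For the interaction, GPI was 0.32, 0.058 and 0.11 and ALDOA 0.36, 0.095 and 0.18 under the same 3 scalings. Between the KD stages ALDOA was 0.23 with an equal sum. Leaving out single libraries, the 8/16-cell differences between KD and NC ran from -0.21 to 0.070 (GPI) and from -0.029 to 0.19 (ALDOA). Those in morulae ran from -0.071 to 0.36 (HK1), -0.28 to 0.11 (ALDOA), -0.12 to 0.45 (ENO1) and -0.45 to 0.18 (GAPDH). Interactions ran from -0.32 to 0.030 (GPI), -0.36 to 0.036 (ALDOA), -0.11 to 0.22 (PGK1) and -0.12 to 0.19 (PKM). Between KD stages the range was -0.10 to 0.13 (GPI) and -0.082 to 0.15 (PGK1), and between NC stages it was -0.28 to 0.12 (ALDOA), -0.15 to 0.17 (PGK1) and -0.024 to 0.28 (PKM). With the replicate block and without morula replicate 1 ALDOA was 0.039 in morulae. Without replicate 2 the interactions of PGK1 and PKM were -0.030 and -0.043. Without replicate 3 HK1 was -0.24, ALDOA 0.19 and GAPDH 0.076 in morulae, and the interactions of PFKP and ALDOA were -0.067 and 0.11. The cause of these changes was not tested.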
